A study of Drosophila melanogaster with 21 samples.

Results

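The comparison described here set the heads of 5 single flies, collected 4 h after training with an odor and sucrose, against the heads of 5 single untrained flies that had not been starved. It covers 10 of the 21 heads measured, and the members were taken by their labels alone. The study asked which RNAs change in the fly head after behavior that leaves a long-term memory, and measured polyA RNA in each head. Every 4 h fly had been starved, then trained with an odor in the presence of sucrose, and was collected 4 h later. The control flies had no precondition, no sugar and no training, and are called fed untrained heads below. Of the other heads, 5 came from flies that were starved and not trained, and 6 from flies starved, trained in the same way and collected 1 h after training. The methods give the sequenced heads of this paradigm as those of single females, and the flies as kept in a light and dark cycle. The labels give no hour of collection. The methods describe food in the hours after training for flies of the behavioral test, and do not say whether the sequenced flies were fed before collection. Starvation, sugar, odor, training and any difference in the hour therefore cannot be told apart in this comparison, and the starved and 1 h heads are given beside it where they bear on a gene.

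A meal, a fast and a refeeding each reset the RNA levels of the fly head, which holds the brain and eyes together with a fat body, blood cells, glia and muscle. The head fat body is the liver-like and adipose-like tissue of the fly. It makes yolk proteins in females, stores fat and glycogen, breaks down amino acids, and answers to insulin. Sugar is sensed inside cells by the transcription factor pair Mondo and Mlx, whose targets include the regulators cabut and sugarbabe. The brain and the eyes run a daily clock, in which period and vrille repress the factors that drive their own genes.

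The values were RPKM, which divide the reads on a gene by its length in kilobases and by a library size. That size, recovered from the values, was not the plain read total. It was 0.81 to 1.01 times the reads on genes in fed heads and 1.02 to 1.08 times in 4 h heads. The RPKM were compared as log2(RPKM + 1) with limma, in 1 fit over all 21 heads. A gene counted as changed when its limma p, adjusted by Benjamini and Hochberg over all genes tested, lay under 0.05. Of 17559 genes, the 10501 with at least 1 RPKM in at least 5 heads were tested. Reads on genes numbered 39965331 to 66654153 in the fed heads and 38024766 to 58564390 in the 4 h heads. The top 10 genes by level held 15.5% to 19.4% of the reads in fed heads and 11.8% to 13.5% in 4 h heads. Fed replicate 2 carried 4.20% of its reads as small structural RNA, whereas no other head was above 0.612%. Each head was a separate fly, so every p below measures the spread between single flies. The paper describes this training as done on groups of flies. The labels do not say whether the heads of a condition came from the same group. Spread between groups trained apart therefore cannot be read from these p values. Values in each head are listed in the order of replicates 1, 2, 3, 5 and 6 for fed heads and 1, 3, 4, 5 and 6 for 4 h heads.

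Against fed heads, 179 genes were higher and 178 lower at 4 h, which was 3.4% of the genes tested, or 1.7% in each direction. The counts of each gene list below are to be read beside these shares. The changes down were larger than those up. The genes that rose had a median log2 fold change of 0.35, and 131 of them changed by less than 0.5, whereas the genes that fell had a median of -0.80. A log2 fold change above 1 was reached by 12 genes, and one below -1 by 67. Many of the calls fell on overlapping gene models, and 330 separate loci remained when called pairs that share at least 50% of the shorter exon length were joined. The locus mod(mdg4) alone gave 10 of the called entries.

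The number of calls moved when any 1 of the 10 heads was left out. It fell to 107, 104 or 63 without fed replicate 2, 3 or 6, and to 132, 132, 125, 203 or 60 without 4 h replicate 1, 3, 4, 5 or 6. It rose to 474 without fed replicate 1 and to 405 without fed replicate 5. Fed replicates 1 and 5 were the ones nearest to the 4 h heads: they held the lowest fed value in 63 and 80 of the 178 genes that fell. A set of 51 genes, 24 higher and 27 lower, was called in every one of the 10 fits that each left out 1 head, and 124 of the 357 genes were called in at least 5. For most of the genes below, the number of these 10 fits that kept the call is given. With each head rescaled to the same 75th percentile the split of calls was 201 higher and 122 lower. With each head rescaled to the same total RPKM it was 3148 higher and 129 lower, because this scaling moved the median of all genes from -0.00763 to 0.30.

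**Figure D1:**
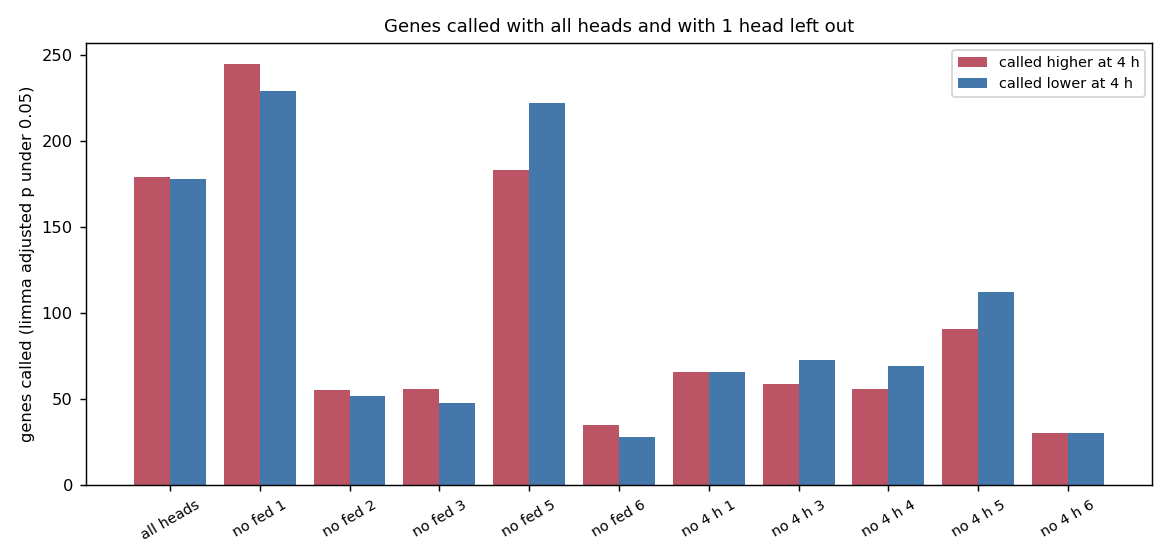
Number of genes called higher (red) and lower (blue) at 4 h against fed heads (limma adjusted p under 0.05), with all heads and with each of the 10 heads left out in turn (x axis). All heads gave 179 higher and 178 lower, and the totals without 1 head ran from 60 without 4 h replicate 6 to 474 without fed replicate 1.

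Products of the fat body were among the genes that fell furthest. Yp3, 1 of the 3 yolk proteins that the female fat body secretes for the egg, stood at 8016, 17574, 14398, 6220 and 20320 RPKM in the fed heads. At 4 h it stood at 599, 954, 1159, 1018 and 396 RPKM. Even the lowest fed head lay above every 4 h head, and the log2 fold change was -3.97 (SE 0.92, limma adjusted p = 0.0286). Yp1 and Yp2, the other yolk proteins, did not pass, at -3.37 and -3.68 on the log2 scale (adjusted p by limma = 0.118 and 0.067), although neither gene had overlapping heads. Yp1 was chosen after its values were seen, and 875 of its 1611 exon bases overlap an antisense gene. The libraries carry no strand, so reads from the gene and from its antisense partner cannot be told apart.

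Lsp2, a serum storage protein, fell by 5.26 on the log2 scale (SE 1.33, limma adjusted p = 0.0371), but its fed heads were of 2 kinds. They stood at 3.35, 1520, 241, 2.47 and 1891 RPKM, against 0.794, 0.845, 5.03, 1.00 and 2.13 RPKM at 4 h. Fed replicates 1 and 5 lay within or next to the 4 h range, so the groups overlapped, and the call was kept in 2 of the 10 fits. The α-glucosidase tobi, a known target of insulin signalling in fat body, was at 2.47 and 2.38 RPKM in the same 2 fed heads and between 79.5 and 673 RPKM in the other fed heads. It fell by 4.24 (limma adjusted p = 0.0421), and its call was also kept in 2 of the 10 fits. Lsp2 shares 2096 of its 2477 exon bases with the antisense gene asRNA:CR11538, which held nearly the same reads.

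A more even fall was seen in takeout (to), a secreted protein of fat body and head that is known to be tied to the clock and to feeding. It stood at 63.2, 74.7, 88.3, 89.7 and 82.5 RPKM in the fed heads and at 27.9, 25.0, 29.6, 27.9 and 29.2 RPKM at 4 h. No heads overlapped, and the log2 fold change was -1.47 (SE 0.30, limma adjusted p = 0.019). Obp99a, an odorant-binding protein also made in fat body, fell by 4.21 (limma adjusted p = 0.0206), from between 10.7 and 177 RPKM to between 0.501 and 5.45 RPKM. Its lowest 4 h value rested on 16 reads. The calcium-binding protein regucalcin fell by 1.81 (limma adjusted p = 0.0272), and its fed heads, 74.8 to 263 RPKM, did not overlap the 4 h heads, 21.5 to 55.5 RPKM.

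Of the 16 listed storage proteins and secreted products of fat body, 12 were tested, and 4 fell (Lsp2, Obp99a, regucalcin and to) while 0 rose. Of the 11 fat body markers 3 fell (Lsp2, Yp3 and to), and 10 had a negative log2 fold change, with a list median of -1.47 against -0.00763 over all genes. The summed RPKM of these 11 markers was 29476 to 65035 in fed heads, 201 to 11543 in starved heads and 1807 to 9189 in 4 h heads. In whole heads, fewer cells of a type and less RNA per cell cannot be told apart. Against starved heads the 4 h values were close to level, at -0.23 for Yp3, -0.01 for Lsp2 and 0.09 for to, none past the threshold (limma adjusted p = 0.923, 0.999 and 0.901). The call of to was kept in 8 of the 10 fits, that of Obp99a in 6, that of regucalcin in 5 and that of Yp3 in 3. All of these calls were lost without fed replicate 6 (log2 fold change -1.46 for to, -3.82 for Obp99a and -1.59 for regucalcin) and without 4 h replicate 6 (-3.73 for Yp3).

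**Figure D2:**
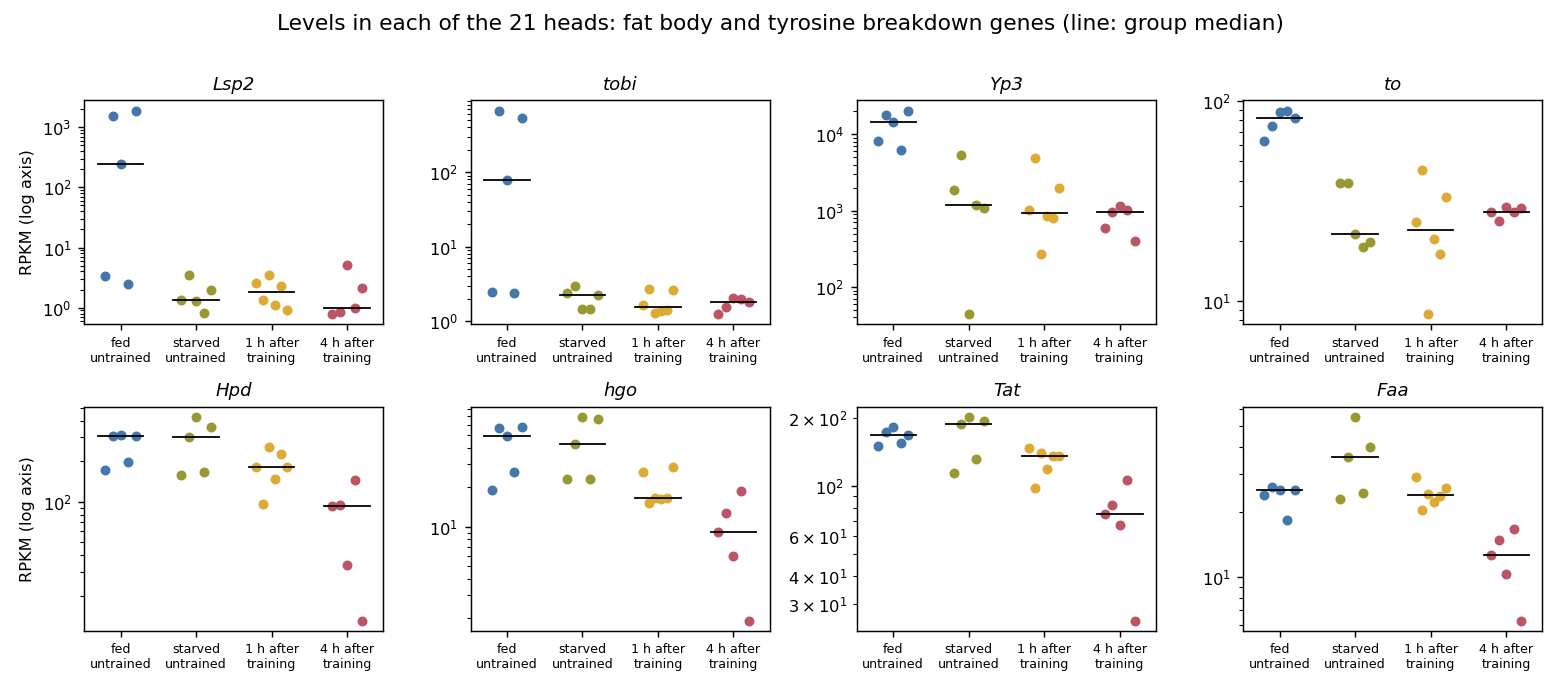
RPKM on a log axis of 4 fat body genes (Lsp2, tobi, Yp3, to) and 4 genes of tyrosine breakdown (Hpd, hgo, Tat, Faa) in each of the 21 heads by group, with a line at the group median. The starved heads of the upper genes lie with the 4 h heads, whereas those of the lower genes lie with the fed heads, as the log2 differences of group means in the text describe.

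Large falls were also seen in genes on neither of these lists. CG34166, without a role known for certain, stood at 224, 2360, 989, 165 and 1792 RPKM in fed heads and at 6.36, 27.1, 59.2, 40.4 and 20.4 RPKM at 4 h. It fell by 4.75 (SE 1.12, limma adjusted p = 0.0291) with no overlap. CG11425 fell by 4.34 (SE 0.90, limma adjusted p = 0.019), from between 17 and 408 RPKM to between 4.49 and 9.05 RPKM, again with no overlap. CG10621, chosen after its values were seen, fell by 4.33 (limma adjusted p = 0.0294), and its lowest fed head, at 30.2 RPKM, lay below its highest 4 h head, at 39.8 RPKM. The calls of CG34166 and CG10621 were kept in 4 of the 10 fits and that of CG11425 in 7, with adjusted p up to 0.0818, 0.0891 and 0.0598. In all 3 genes fed replicates 1 and 5 were the lowest fed heads, as in Lsp2 and tobi. Of the 15 lowest log2 fold changes among called genes without overlap, CG9914, asRNA:CR45485, CG34291, asRNA:CR31084, CG3679 and CG31075 ranged from -3.53 to -2.50, and each of their calls was kept in 2 or 3 of the 10 fits. Among these 6, CG34291 and asRNA:CR31084 share exon bases, so their reads may be the same, and asRNA:CR45485 and CG3679 each share exon bases with Had1.

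A neighborhood on chromosome arm 3R held falls that were smaller but kept in every fit. CG31465, at 21880810 to 21883990 of BDGP6.54 and without a role known for certain, stood at 5.39, 12.9, 19.6, 4.96 and 19.5 RPKM in fed heads. At 4 h it stood at 0.856, 2.15, 2.26, 1.51 and 1.30 RPKM. The log2 fold change was -2.20 (SE 0.32, limma adjusted p = 0.00205) and was called in all 10 fits. The antisense gene asRNA:CR45046, which shares 4878 of its 5273 exon bases with its neighbors, fell by 2.36 (limma adjusted p = 0.00511). P5CDh2, named for the enzyme of proline breakdown and chosen after its values were seen, lies at the other end of that antisense gene and fell by 1.49 (limma adjusted p = 0.00511). Without strand, these 3 entries may count the same reads. The end of CG31465 overlaps fit, a fat body satiety gene of females, in 99 of its 531 exon bases. At 4 h fit had a log2 fold change of -2.74 that did not pass (limma adjusted p = 0.0819), with fed heads at 223 to 1102 RPKM and 4 h heads at 26.8 to 148 RPKM. All 4 genes were lower still in starved heads, with starved minus fed differences of -3.39 for CG31465, -3.98 for asRNA:CR45046, -1.86 for P5CDh2 and -6.10 for fit. These starved differences share the 5 fed heads with the 4 h comparison, and 159 genes (1.51%) were called between starved and fed heads. Between 4 h and starved heads, where 6.37% of genes were called, CG31465 rose by 1.20 and fit by 3.37 (limma adjusted p = 0.0284 and 0.0223).

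Next came 4 enzymes of the breakdown of tyrosine, with a further step between hgo and Faa. Tat removes the amino group of tyrosine, Hpd turns the product into homogentisate, hgo opens the ring of homogentisate, and Faa cleaves the last intermediate into fumarate and acetoacetate. All 4 fell. Tat stood at 151, 173, 183, 155 and 168 RPKM in the fed heads and at 75.3, 82.7, 67.3, 107 and 25.3 RPKM at 4 h. Every 4 h head lay below every fed head, and 4 h replicate 6 was the lowest. The log2 fold change of Tat was -1.34 (SE 0.27, limma adjusted p = 0.0153).

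Hpd was at 173, 307, 314, 198 and 309 RPKM in fed heads against 92.0, 94.3, 34.0, 145 and 13 RPKM at 4 h. This was a log2 fold change of -2.14 (SE 0.49, limma adjusted p = 0.0281). The levels of hgo were 19.0, 56.5, 49.7, 26.1 and 58.1 RPKM in fed heads and 9.13, 12.7, 6.03, 18.7 and 1.92 RPKM at 4 h, a log2 fold change of -2.14 (SE 0.45, limma adjusted p = 0.0196). The gap between the groups was narrow for hgo, at 19.0 RPKM in fed replicate 1 against 18.7 RPKM in 4 h replicate 5. Faa fell by 0.97 (SE 0.22, limma adjusted p = 0.0285), from between 18.3 and 26.1 RPKM to between 6.27 and 16.7 RPKM.

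These 4 genes differed from the fat body products in where the starved heads lay. Starved minus fed differences were -0.03 for Tat, 0.04 for Hpd, 0.07 for hgo and 0.50 for Faa, none past the threshold (limma adjusted p = 0.954, 0.97, 0.938 and 0.23). Against starved heads all 4 fell at 4 h, by 1.31, 2.18, 2.22 and 1.47 (limma adjusted p = 0.00742, 0.012, 0.0073 and 0.00197). At 1 h after training the differences from fed heads were -0.37, -0.54, -0.95 and 0.03, also not past the threshold (limma adjusted p = 0.352, 0.462, 0.155 and 0.947). Whether the 4 h heads differed from the 1 h heads was not settled, as none of the 4 genes passed there (limma adjusted p = 0.122, 0.154, 0.244 and 0.0804).

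Neighboring steps of the pathway, chosen after their values were seen, did not pass. Hn, which makes tyrosine from phenylalanine, had a log2 fold change of -0.95 at an adjusted p of 0.212 by limma although its fed and 4 h heads did not overlap. GstZ1 and GstZ2, which carry out the step before Faa, had -0.71 and -0.52 (limma adjusted p = 0.182 and 0.202). Of 37 listed genes of amino acid breakdown, 35 were tested, 4 fell and 0 rose, a share of 11.4% beside the 3.4% of all genes. All 35 had a negative log2 fold change, with a median of -0.70. After rescaling to the same total RPKM, 24 were negative and 11 positive, with a median of -0.37 where the median of all genes was 0.30. In the annotation every exon base of Tat is shared with CG46317, so its reads may belong to either. Tat was called in all 10 fits, hgo in 6, Hpd in 5 and Faa in 4. The calls of the last 3 were lost without fed replicates 2, 3 or 6 or 4 h replicate 6, and the highest adjusted p of each was 0.0605 for hgo and 0.0717 for Hpd without fed replicate 6 and 0.0818 for Faa without 4 h replicate 6.

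Enzymes of amine synthesis, eye pigment and purine breakdown fell as well. Tyrosine hydroxylase (ple), which turns tyrosine into the precursor of dopamine, stood at 47.7, 54.8, 42.8, 31.0 and 35.6 RPKM in fed heads and at 14.2, 22.6, 15.3, 16.7 and 14.4 RPKM at 4 h. The groups did not overlap, and the log2 fold change was -1.29 (SE 0.25, limma adjusted p = 0.0123, called in all 10 fits). It was the only 1 of the 30 tested genes of dopamine, octopamine and serotonin that changed, or 3.33% beside 3.4% of all genes. Sepia (se), which makes a precursor of the red eye pigments, fell by 1.73 (limma adjusted p = 0.00511, all 10 fits), from between 37.1 and 92.9 RPKM to between 12.5 and 22.9 RPKM. Rosy (ry), the xanthine dehydrogenase that forms uric acid, fell by 1.78 (limma adjusted p = 0.0244), from between 11.6 and 39.0 RPKM to between 3.47 and 7.44 RPKM. The call of ry was kept in 5 of the 10 fits and was lost without fed replicates 2 or 6 or 4 h replicates 1, 3 or 6, with -1.71 and an adjusted p of 0.0687 without the last. These 2 were the only called genes among 16 of pteridine and eye pigment.

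Fat burning was marked by a single call. Withered (whd), the carnitine palmitoyltransferase that admits long-chain fatty acids to the mitochondrion, stood at 99.2, 90.5, 99.6, 71.9 and 143 RPKM in fed heads. At 4 h it stood at 39.0, 36.9, 51.3, 36.6 and 27.8 RPKM, and no heads overlapped. The log2 fold change was -1.36 (SE 0.24, limma adjusted p = 0.00631, called in all 10 fits). In starved heads whd was at 65 to 198 RPKM, with a starved minus fed difference of 0.29 that did not pass (limma adjusted p = 0.485), and at 1 h it was already 1.20 below fed heads (limma adjusted p = 0.00616, where 8.98% of genes were called). Of the other genes of fatty acid oxidation and ketone use, none of the 34 changed, although 33 of all 35 had a negative log2 fold change and the list median was -0.61. After rescaling to the same total RPKM 24 were negative and 11 positive with a median of -0.27. At that scaling 4 were called higher and 5 lower, beside 3148 and 129 of all 10501 genes. Without rescaling, the largest in size among the 34 was CG3902, at -2.16 (limma adjusted p = 0.0737), with fed heads at 76 to 256 RPKM and 4 h heads at 13.2 to 52.1 RPKM.

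Enzymes of detoxification gave several calls. Of 72 tested cytochrome P450 genes 9 fell (12.5%, beside 1.7% of all genes) and 0 rose. The largest fall was in Cyp4d21, also known as sxe1 and linked to male courtship. It stood at 17.3, 19.6, 26.8, 20.8 and 17.5 RPKM in fed heads and at 8.59, 5.37, 6.32, 3.96 and 1.45 RPKM at 4 h, a log2 fold change of -1.92 (SE 0.37, limma adjusted p = 0.0123, all 10 fits). The other P450 genes that fell ranged from -1.20 for Cyp28d1 to -0.58 for Cyp6d4 (limma adjusted p = 0.030 and 0.0285). None of these 8 calls was kept in every fit: Cyp6a20 and Cyp6a21 were kept in 6 of the 10 fits, Cyp12e1 in 4, Cyp28d1, Cyp6d4, Cyp6v1 and Cyp9b2 in 3 and Cyp6d5 in 1. Over the list 55 of 72 were negative, but 41 were positive after rescaling to the same total RPKM, where 5 were called higher and 6 lower. Over all 10501 genes tested, 8995 were positive, 3148 were called higher and 129 lower after that rescaling. UDP-glycosyltransferases, which attach sugars to small molecules, gave 2 falls in 17 (Ugt35A1 at -0.81 and Ugt302C1 at -0.66, limma adjusted p = 0.0414 and 0.0476), and all 17 were negative, or 15 after that rescaling. Neither of these calls was kept in more than 2 of the 10 fits.

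Among 53 tested genes of glutathione and antioxidant defence, 3 fell and 1 rose, or 7.55% called beside 3.4% of all genes. Catalase (Cat), which removes hydrogen peroxide, was at 155, 158, 179, 121 and 216 RPKM in fed heads and at 99.0, 105, 76.7, 115 and 62.0 RPKM at 4 h. This was a log2 fold change of -0.86 at an adjusted p of 0.0285 by limma with no overlap between the groups. GstS1 fell by 1.41 (limma adjusted p = 0.036), with overlapping heads, and GstD10 by 0.51 (limma adjusted p = 0.0469). Gss1, glutathione synthetase, rose by 0.25 (limma adjusted p = 0.0421), from between 26.7 and 31.3 RPKM to between 33.8 and 37.4 RPKM. Of the list 42 genes were negative, but 28 were positive after rescaling to the same total RPKM, where 8995 of all 10501 genes were. The call of Cat was kept in 5 of the 10 fits, with -0.73 and an adjusted p of 0.0865 without 4 h replicate 6, those of GstS1 and GstD10 in 2 and that of Gss1 in 1.

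Of 14 tested hemocyte markers, genes of blood cells, 4 fell (28.6%, beside 1.7% of all genes), and they were picked out after their values were seen. These were Sr-CI, a scavenger receptor (log2 fold change -0.95, limma adjusted p = 0.0365), He, the surface protein Hemese (-0.73, limma adjusted p = 0.0206), NimC1, a phagocytosis receptor (-0.49, limma adjusted p = 0.0463), and crq, a receptor for dying cells (-0.22, limma adjusted p = 0.0474). Sr-CI stood at 13.8, 20.2, 28.2, 18.3 and 26.9 RPKM in fed heads and at 12.9, 13.5, 8.46, 13.2 and 5.80 RPKM at 4 h, so that the groups touched but did not overlap. The summed RPKM of the 14 markers was 211 to 401 in fed heads, 220 to 308 in starved heads and 157 to 212 at 4 h. The sign of crq turned after rescaling to the same total RPKM (0.13), where the median of all genes was 0.30. At the same 75th percentile 1 of the 4 markers was called. NimC2 and NimB5, of the same Nimrod family as NimC1 and also chosen after their values were seen, fell by 0.69 and 0.92 (limma adjusted p = 0.00907 and 0.0189). Only NimC2 was called in all 10 fits. He and NimB5 were called in 8, Sr-CI in 4 and NimC1 and crq in 2, and the highest adjusted p of Sr-CI was 0.108 without 4 h replicate 6.

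Muscle, glial and neuronal genes gave few calls, and photoreceptor genes are described further below. Of 18 tested muscle genes limma called 0, with 5 at an unadjusted p under 0.05 and 0 by voom, 16 were negative, and their summed RPKM was 1573 to 3373 in fed and 822 to 2020 in 4 h heads. Of 15 tested glial markers 1 fell, the glutamine synthetase Gs2 (-0.68, limma adjusted p = 0.0328), which was chosen after its values were seen and kept in 4 of the 10 fits. No called gene was found among 11 neuron markers, whose summed RPKM was 948 to 1201 in fed and 1008 to 1131 in 4 h heads, nor among 29 genes of synaptic vesicle release or 44 ion channels and transmitter receptors. These 3 lists held 2, 2 and 8 genes at an unadjusted limma p under 0.05, and voom called 0. Of 70 tested nuclear genes of oxidative phosphorylation limma called 0, with 13 at an unadjusted p under 0.05 and 0 by voom. Of these, 69 were negative with a median of -0.28, and 24 had every 4 h head below every fed head (4.76% of all genes did). After rescaling to the same total RPKM 51 were positive with a median of 0.07, beside 8995 of all 10501 genes and a median of 0.30. At the same 75th percentile 67 of the 70 were negative. The part of cell content in any of these results was not tested.

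**Figure D3:**
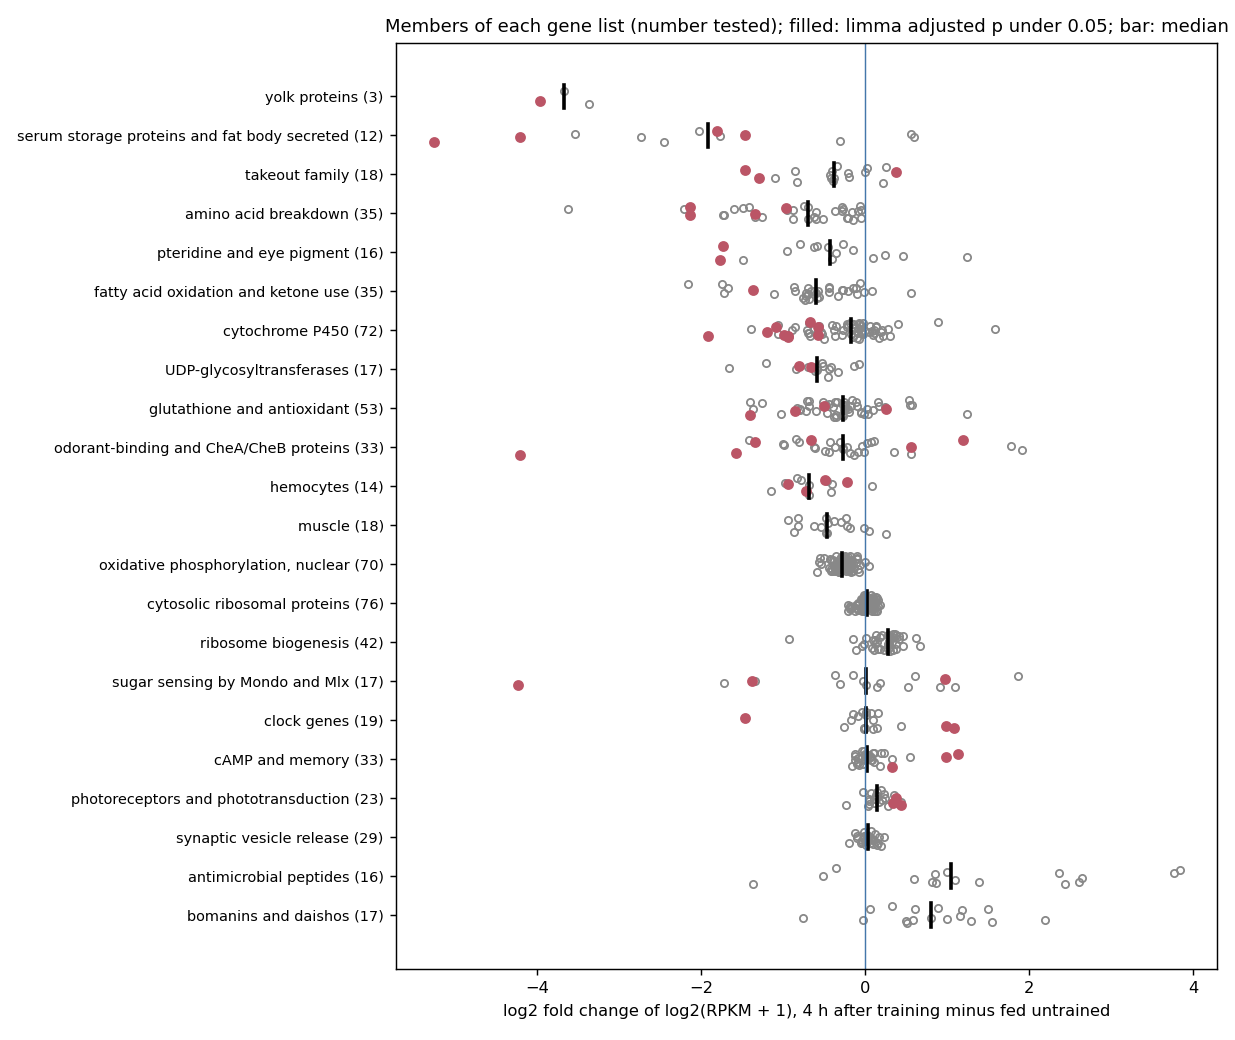
Log2 fold change of log2(RPKM + 1), 4 h minus fed (x axis), of each tested member of the gene lists named (y axis, number tested in brackets), with genes at a limma adjusted p under 0.05 filled in red and the list median as a bar. Medians ran from -3.68 for the 3 yolk proteins to 1.05 for the 16 antimicrobial peptides. Those of oxidative phosphorylation, cytochrome P450 and glutathione genes turned positive (0.07, 0.10 and 0.05) when heads were rescaled to the same total RPKM. The median of all genes was then 0.30. At the same 75th percentile the 3 list medians stayed negative (-0.21, -0.12 and -0.21).

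Among the genes that rose, the clock gene period (per), on the X chromosome at 2685580 to 2692780, had the smallest adjusted p. It stood at 7.09, 4.98, 5.89, 5.60 and 6.71 RPKM in fed heads and at 13, 13, 14.2, 13.9 and 10.7 RPKM at 4 h, with at least 2385 reads in each 4 h head. No heads overlapped, and the log2 fold change was 0.99 (SE 0.11, limma adjusted p = 0.000399, called in all 10 fits). Starved and 1 h heads lay near the fed heads, with differences of 0.15 and 0.25 that did not pass (limma adjusted p = 0.438 and 0.129). Against 1 h heads, where only 9 genes (0.0857%) were called, per was 0.73 higher at 4 h (limma adjusted p = 0.00526).

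Vrille (vri), the repressor of Clk in the same clock, was at 11, 8.55, 12.3, 10.7 and 8.73 RPKM in fed heads and at 22.2, 22.9, 23.2, 24.1 and 20.8 RPKM at 4 h. Its log2 fold change was 1.08 (SE 0.22, limma adjusted p = 0.019), and the call was lost in 1 of the 10 fits, without fed replicate 6 (1.03, adjusted p = 0.0598). Of 19 tested clock and clock output genes, per and vri rose and to fell, or 15.8% called beside 3.4% of all genes. The other members of the feedback loop, chosen after their values were seen, did not pass. Timeless (tim), the partner of per, had a log2 fold change of -0.26 at an adjusted p of 0.515 by limma. Clk had -0.18 and the blue light receptor cry had -0.09 (limma adjusted p = 0.358 and 0.679). All 3 turned positive after rescaling to the same total RPKM, to 0.09, 0.15 and 0.27, where the median of all genes was 0.30. The hour of the day at collection is not in the labels, so clock time and treatment cannot be told apart.

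Among 33 tested genes of cAMP signalling and memory 3 rose (9.09%, beside 1.7% of all genes) and 0 fell, per being 1 of the 3. Akap200, which anchors protein kinase A, rose by 1.14 (SE 0.21, limma adjusted p = 0.00988, all 10 fits). Its fed heads at 20.6 to 52.6 RPKM lay just below its 4 h heads at 58.7 to 98.1 RPKM. Nord, a secreted protein found through a learning mutant, rose by 0.33 (limma adjusted p = 0.019). It stood at 3.45, 3.09, 3.65, 3.52 and 3.69 RPKM in fed heads and at 4.36, 4.51, 4.86, 4.32 and 5.02 RPKM at 4 h, and its call was lost without 4 h replicate 6 (0.30, adjusted p = 0.061).

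Hr38, the nuclear receptor that neurons induce after activity, moved in opposite directions at the 2 times. It stood at 3.86, 3.82, 4.63, 4.73 and 4.47 RPKM in fed heads and at 2.49, 1.92, 3.26, 1.24 and 1.52 RPKM at 4 h. This was a log2 fold change of -0.82 (SE 0.16, limma adjusted p = 0.0123, all 10 fits), with no overlap. At 1 h it was 5.50 to 10.5 RPKM, or 0.78 above fed heads (limma adjusted p = 0.00646). The direct contrast of 4 h with 1 h was -1.60 (limma adjusted p = 1.97e-05). Starved heads, at 4.41 to 6.15 RPKM, were 0.16 above fed heads (limma adjusted p = 0.568).

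The list of sugar sensing by Mondo and Mlx gave calls in both directions. Cabut (cbt), a transcription factor that sugar induces, stood at 19.7, 20.2, 31.8, 20.8 and 19.3 RPKM in fed heads and at 41.0, 42.0, 43.0, 37.3 and 59.1 RPKM at 4 h. The log2 fold change was 0.97 (SE 0.26, limma adjusted p = 0.0463). Its heads did not overlap, but the call lay near the threshold and was kept in none of the 10 fits (log2 fold change 0.86 to 1.10, highest adjusted p 0.133 without 4 h replicate 6). Sugarbabe (sug), a second such factor, had 1.86 and did not pass (limma adjusted p = 0.106), with fed heads at 8.5 to 19.8 RPKM and 4 h heads at 24.3 to 104 RPKM. Of the 17 tested genes of Mondo and Mlx sugar sensing, cbt rose, while tobi and the aldehyde dehydrogenase Aldh (-1.38, limma adjusted p = 0.0417, kept in 3 of the 10 fits) fell, and 9 were positive and 8 negative with a median of 0.01. The partner factor bigmax and the activin ligand daw, chosen after their values were seen, had 0.52 and 1.10 (limma adjusted p = 0.0737 and 0.15), each with no overlap between fed and 4 h heads.

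Gbs-76A, the subunit that brings protein phosphatase 1 to glycogen, rose by 0.95 (SE 0.17, limma adjusted p = 0.00852, all 10 fits). Its fed heads stood at 16.8, 19.5, 15.4, 22.5 and 13.7 RPKM and its 4 h heads at 25.9, 29.8, 40.6, 32.9 and 46.4 RPKM. Starved heads were level with fed heads (-0.23, limma adjusted p = 0.45), and at 1 h the difference from fed heads was 0.77 (limma adjusted p = 0.011). Drat, an alcohol dehydrogenase-like protein, rose by 1.05 (limma adjusted p = 0.0285), from between 52.3 and 66.6 RPKM to between 92.3 and 167 RPKM, and stood at 98.1 to 315 RPKM at 1 h. Its call was kept in 4 of the 10 fits and lost without fed replicates 2, 3 or 6 or 4 h replicates 1, 3 or 6 (0.95 and adjusted p 0.0865 without the last). In the insulin pathway the only calls among 18 tested genes were falls of tobi and of Ilp5, an insulin of brain neurons (-1.39, limma adjusted p = 0.0383), whose heads overlapped and whose call was kept in 3 of the 10 fits (adjusted p = 0.113 without fed replicate 6).

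**Figure D4:**
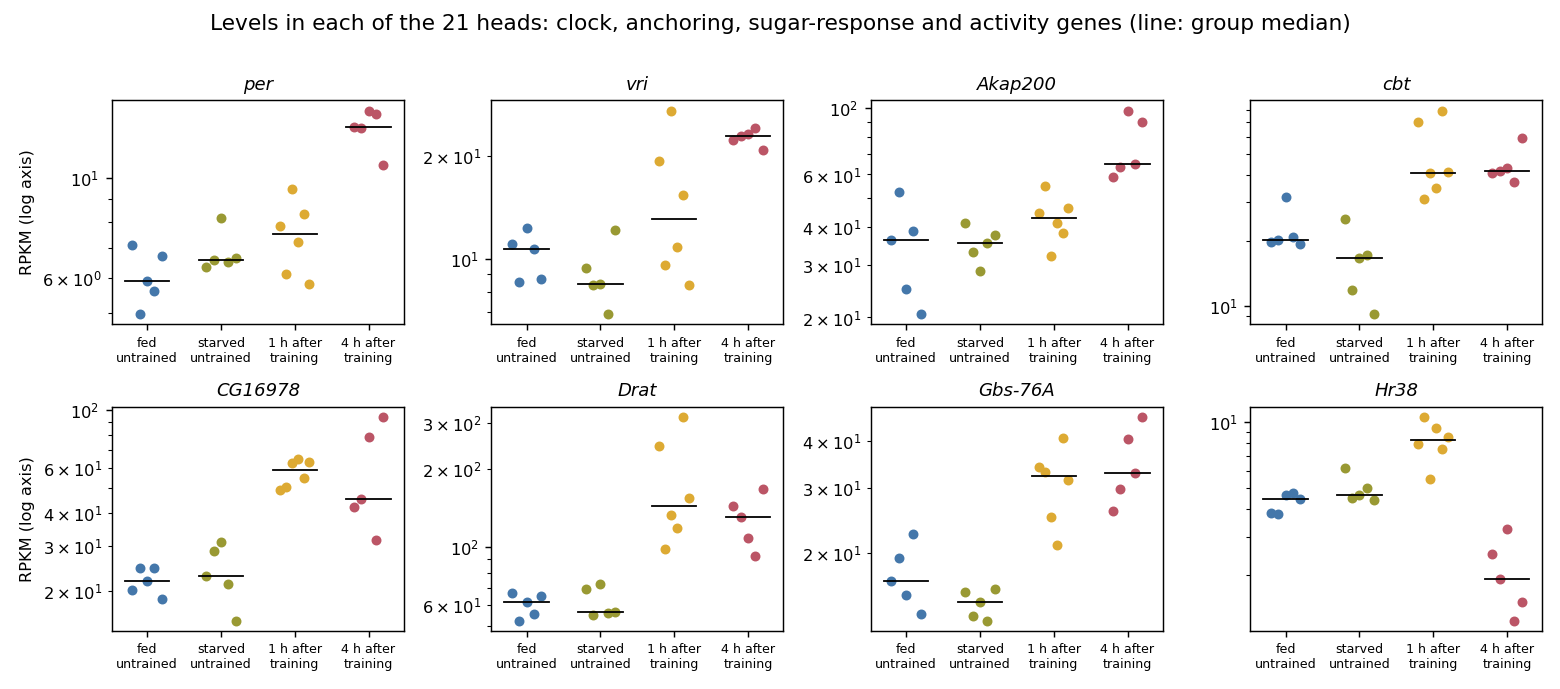
RPKM on a log axis of per, vri, Akap200, cbt, CG16978, Drat, Gbs-76A and Hr38 in each of the 21 heads by group, with a line at the group median. The 4 h heads of per lie between 10.7 and 14.2 RPKM, above all other heads, whereas cbt, CG16978, Drat and Gbs-76A are high at 1 h as well and Hr38 is high at 1 h and low at 4 h.

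Several other genes rose. Shifted (shf), a secreted protein that aids the spread of Hedgehog, rose by 1.01 (SE 0.17, limma adjusted p = 0.00547, all 10 fits). It stood at 27.4, 23.0, 23.9, 28.1 and 23.5 RPKM in fed heads and at 60.0, 42.3, 61.7, 40.0 and 57.7 RPKM at 4 h. CG13255 rose by 0.99 (limma adjusted p = 0.0025, all 10 fits), from between 7.22 and 10.4 RPKM to between 14.8 and 24.7 RPKM, and overlaps asRNA:CR45943 in 388 bases. The kinesin-like gene nod and the gene pkm within its span rose by 1.07 each (limma adjusted p = 0.0159 for both), with nearly proportional values in every head, and their reads cannot be assigned to 1 of them. Both calls were kept in 9 of the 10 fits. The ubiquitin protease Usp8 and the ubiquinone enzyme Coq7, chosen after their values were seen, rose by 0.57 and 0.65 (limma adjusted p = 0.00205 and 0.0143, all 10 fits). Coq7 and shf overlap in position on the X chromosome but share no exon base. Of 23 tested genes listed under basement membrane and matrix 2 rose (8.7%, beside 1.7% of all genes). Timp, an inhibitor of matrix proteases, and Tsf2, by its name a transferrin and not a matrix protein, rose by 0.47 and 0.26 (limma adjusted p = 0.0426 and 0.0371). Both calls were kept in 2 of the 10 fits, and 16 of the 23 were negative. Gagr and CG44836, both on chromosome arm 3L, rose by 1.01 and 0.89 (limma adjusted p = 0.0303 and 0.0371), in 4 and 3 of the 10 fits.

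Of 23 tested photoreceptor and phototransduction genes 3 rose (13%, beside 1.7% of all genes), and they were picked out after their values were seen. The blue and green opsins Rh5 and Rh6 rose by 0.33 and 0.44 (limma adjusted p = 0.043 and 0.0257) and arrestin 1 (Arr1), which shuts off active opsin, by 0.38 (limma adjusted p = 0.0366). Rh6 stood at 114, 95.0, 114, 117 and 107 RPKM in fed heads and at 146, 153, 133, 154 and 155 RPKM at 4 h, without overlap. Over the list 21 of 23 were positive, and 8 had every 4 h head above every fed head (4.16% of all genes did). The main opsin ninaE had 0.43 and did not pass (limma adjusted p = 0.0769). The summed RPKM of the listed genes was 17678 to 23352 in fed, 18916 to 24491 in starved and 25859 to 28170 in 4 h heads. Pph13, a homeobox factor of photoreceptors, and Slob, a regulator of a potassium channel, rose by 0.49 and 0.44 (limma adjusted p = 0.00904 and 0.02). The call of Rh6 was kept in 6 of the 10 fits and those of Rh5 and Arr1 in 1, with adjusted p up to 0.12 for Rh5 without 4 h replicate 6, while that of Pph13 was kept in all 10 and that of Slob in 8.

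Odorant-binding and related proteins moved both ways. Of 33 tested, 4 fell (Obp99a, Obp56f, Obp83cd and Obp73a) and 2 rose (CheA87a and Obp57d), or 18.2% called beside 3.4% of all genes. Obp83cd stood at 6.45, 8.96, 13, 5.68 and 13 RPKM in fed heads and at 1.98 to 3.61 RPKM in the 5 heads at 4 h. This was a log2 fold change of -1.35 (SE 0.23, limma adjusted p = 0.00511, all 10 fits). Obp56f fell by 1.58 and Obp73a by 0.67 (limma adjusted p = 0.0248 and 0.0206), kept in 5 and 7 of the 10 fits. CheA87a rose by 1.19 (limma adjusted p = 0.0333, 3 of the 10 fits), from between 0.215 and 2.32 RPKM to between 2.33 and 6.24 RPKM. Obp57d rose by 0.55 (limma adjusted p = 0.036, 2 of the 10 fits), but all 1488 of its exon bases are shared with the cuticle gene Cpr57A, which held the same values. Obp99d missed the threshold at 1.92 (limma adjusted p = 0.0505), with fed heads at 3.25 to 7.53 RPKM and 4 h heads at 13.7 to 36.4 RPKM. Among 18 tested takeout-family genes, Jhbp15 fell by 1.29 and Jhbp2 rose by 0.38 (limma adjusted p = 0.011 and 0.0143, all 10 fits), beside the fall of to.

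Several large lists held no called gene. These were the 76 cytosolic ribosomal proteins, 42 genes of ribosome biogenesis, 32 translation factors and tRNA synthetases, 34 proteasome genes, 71 genes of the mitochondrial ribosome, 22 of glycolysis and gluconeogenesis, 31 of TOR signalling and autophagy and 21 of juvenile hormone and ecdysone. At an unadjusted limma p under 0.05 they held 0, 9, 4, 0, 8, 6, 9 and 4 genes in that order, where 20.1% of all genes tested did, and voom on the recovered reads called 1 gene, in ribosome biogenesis. The absence of calls depended on scaling: at the same total RPKM the lists held 30, 34, 13, 4, 12, 2, 12 and 3 genes called higher in that order, and 1 of glycolysis and gluconeogenesis called lower. Over all 10501 genes tested, that scaling called 3148 higher and 129 lower. The share called higher was above that of all genes in ribosome biogenesis, at 34 of 42, and below it in the proteasome list, at 4 of 34. In the fit without rescaling, 37 of the 42 ribosome biogenesis genes were positive with a median of 0.28, against medians of 0.03 for ribosomal proteins and -0.40 for glycolysis. Within the last list the gluconeogenic enzyme Pepck1 had -3.29 (limma adjusted p = 0.131), with fed heads at 226 to 1064 RPKM and 4 h heads at 27.6 to 91.1 RPKM. Immune peptides were spread too widely for a call. The 16 tested antimicrobial peptides and 17 bomanins and daishos had medians of 1.05 and 0.80, and limma called 0 of them, with 4 and 1 at an unadjusted p under 0.05 and 0 by voom on the recovered reads. Drosocin (Dro) showed the spread, with 1640, 13.9, 330, 52.8 and 16.4 RPKM at 4 h against 4.35, 5.49, 8.5, 11.2 and 2.09 RPKM in fed heads (log2 fold change 3.84, limma adjusted p = 0.109). Diptericin B (DptB), another such peptide, stood at 12.3, 43.0, 13.9, 15.7 and 8.95 RPKM in fed heads and at 1979, 10.9, 551, 48.2 and 20.3 RPKM at 4 h. The groups overlapped, and its log2 fold change of 2.64 did not pass (limma adjusted p = 0.214).

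Gene by gene, the 4 h differences were thus of several kinds when the starved and 1 h heads were set beside them. All 3 differences use the same 5 fed heads. Yp3, Lsp2 and to had starved values (-3.75, -5.26 and -1.56) and 1 h values (-3.46, -5.16 and -1.79) like those at 4 h (-3.97, -5.26 and -1.47). Tat, Hpd, hgo and Faa had starved values between -0.03 and 0.50 beside 4 h values between -2.14 and -0.97. CG16978, Gbs-76A and shf had starved values of 0.08, -0.23 and 0.15 and 1 h values of 1.35, 0.77 and 0.72, beside 1.26, 0.95 and 1.01 at 4 h. For per the 3 values were 0.15, 0.25 and 0.99.

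**Figure D5:**
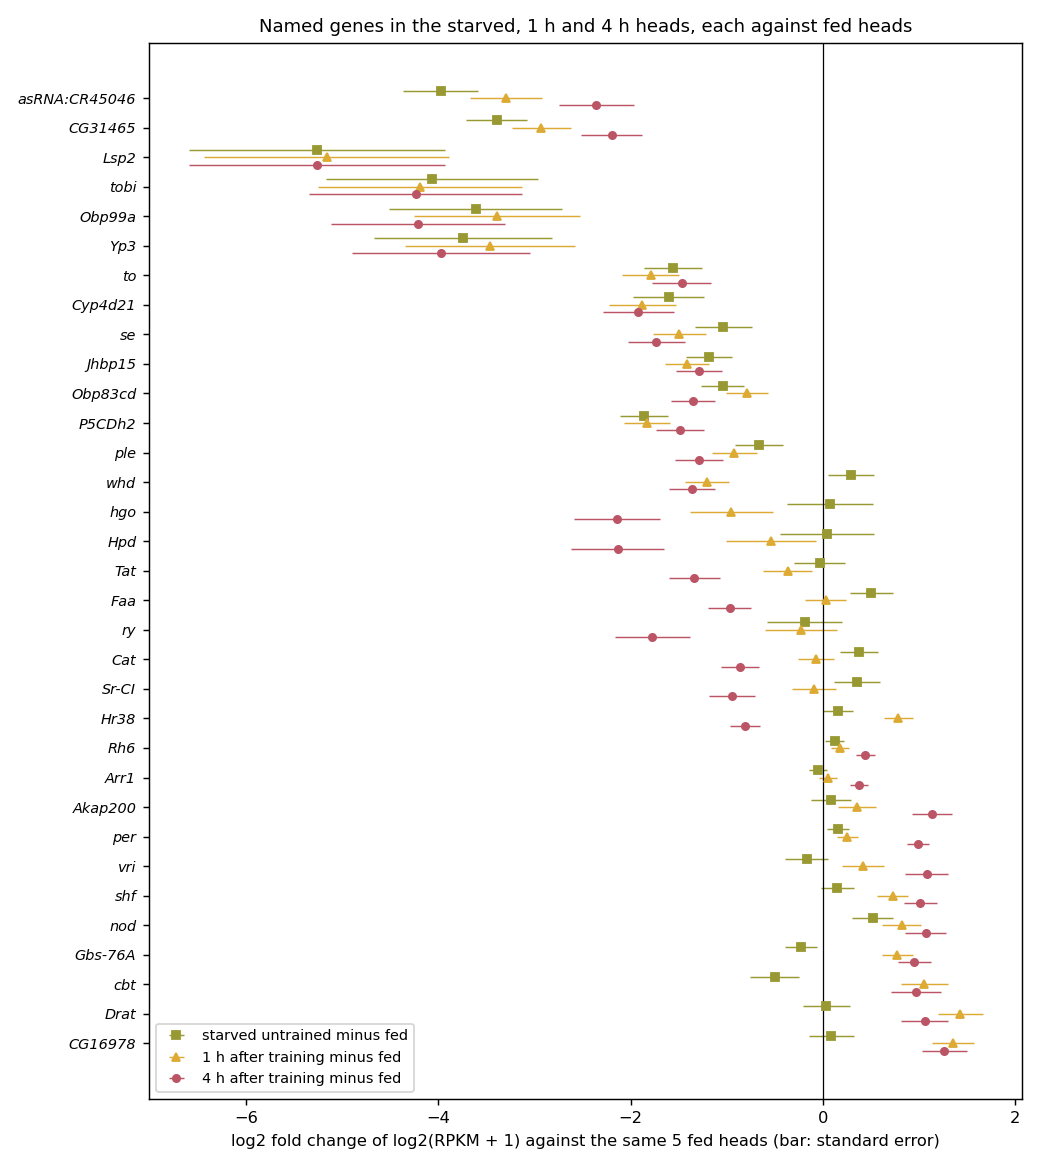
Log2 fold change of log2(RPKM + 1) against the same 5 fed heads (x axis, bars are standard errors) of named genes (y axis) in starved heads (squares), 1 h after training (triangles) and 4 h after training (circles). Fat body genes at the top have 3 low values, Tat, Hpd, hgo and Faa are low at 4 h beside starved values near 0, and Hr38 lies above 0 at 1 h and below 0 at 4 h.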

How the data were processed

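The 10 heads compared, and the 11 others in the same fit, were single female fly heads with 1 non-stranded polyA library each, grouped by their labels. The authors deposited 1 RPKM value per gene and head. The labels name CASAVA 1.8.2, TopHat2 2.0.13 and dm6, while another paragraph of the methods names TopHat with Bowtie, dm3 and cuffdiff. In all 17212 genes above 0 the RPKM were whole multiples of 1 read in each head (tolerance 0.01 of a read), so reads were recovered. Depth ran from 36076678 to 67918703 reads on genes. Since RPKM is not a count, log2(RPKM + 1) was tested with limma 3.58.1 in R 4.3.3 (lmFit, eBayes with trend, 4 group means, 21 heads, Benjamini-Hochberg adjustment, threshold 0.05). Adding the pseudocount shrinks the fold changes of genes with low RPKM. The test was checked on simulated data. Python 3.11.15, pandas 2.3.3 and matplotlib 3.10.9 were used.

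The comparison, the gene lists and the rule for naming genes were chosen with earlier results of these data known. The rule named the 15 highest and 15 lowest log2 fold changes among called genes whose heads did not overlap. It also named called list members, the largest uncalled member of each list with an absolute log2 fold change of at least 1, and 8 genes by name. Genes outside it are said to be chosen after their values were seen. Symbols were found for 17253 identifiers in a table of current names and for 26 more in the study's tables, and 280 had none. Positions are those of BDGP6.54. No set test was run, and a list's counts are to be read beside the 3.4% of all genes that were called, or 1.7% in each direction. The alternatives were other pseudocounts, filters, scalings, eBayes without trend, only the 2 groups, a replicate block, voom on recovered reads and leaving out each head.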

Additional observations from a re-analysis of the deposited data

Results flagged for a closer look

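Of 302 groups of 5 heads examined, 13 had a highest or lowest head far from the other 4, where chance gives about 1 in 20. Fed heads gave 9 of these and 4 h heads 4.

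In fed replicate 2, GstD3 stood at 29.0 RPKM against 6.97 to 9.47 in the other fed heads, He at 4.67 against 1.87 to 2.35, Pph13 at 11 against 14.3 to 14.6 and daw at 7.03 against 11.5 to 13.6. In fed replicate 1, Cpr100A stood at 81.8 RPKM against 10.3 to 11.4, Gss1 at 26.7 against 30.1 to 31.3 and Usp8 at 12.3 against 10.1 to 10.6. Faa was at 18.3 RPKM in fed replicate 5, against 24.0 to 26.1 in the other fed heads, and cbt at 31.8 in fed replicate 3, against 19.3 to 20.8.

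Among 4 h heads, CG31300 was at 6.43 RPKM in replicate 6, against 11.4 to 12.7 in the others, and bond at 13.4 in replicate 1, against 17 to 18.7. Gnmt stood at 19.7 RPKM in replicate 4, against 0.87 to 1.96. Jhedup stood at 0.0649 RPKM in replicate 5, against 9.46 to 19.4.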

How the results depend on the processing

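With the settings of the report 357 genes were called. Dropping the filter on low values gave 227, of which 205 were among the 357. Rescaling to the same total RPKM gave 3277, of which 265 were. Leaving out 1 head gave 60 to 474 calls. A pseudocount of 0.1, a mean RPKM of at least 5 and the 75th percentile gave 352, 318 and 323 calls. Among the 357 were 346, 288 and 266 of them. Calls by eBayes without a trend, with only the 2 groups in the fit and by voom on recovered reads numbered 346, 510 and 332. Of these 337, 244 and 316 were among the 357. With the replicate number as a replicate block 87 genes were called, 86 of them among the 357. Same-numbered heads are different flies. The correlations of their deviations from the group means were 0.251, 0.0346, 0.000261 and 0.0511 for numbers 1, 3, 5 and 6. These were not set beside those of differently numbered heads, so they cannot decide whether the numbers pair the heads. Of the 151 genes examined, the sign turned under the same total RPKM for tim (0.090), crq (0.13), Clk (0.15) and cry (0.27). The median of all genes at that scaling was 0.30. The sign also turned for AttB without 4 h replicate 1 (-0.33, with a range over the heads left out of -0.33 to 1.46). Under the other alternatives no sign turned, and the cause of the lost calls was not tested. With 5 single flies in each group, changes like that of cbt (adjusted p = 0.0463) lie at the limit of what was called. In each 4 h head cbt had at least 5536 reads.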

Other observations

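Jhedup, a relative of the juvenile hormone esterase, was either nearly off or clearly on in single heads of every group. Over the 21 heads it was under 1 RPKM in 11 (at most 0.651) and over 5 RPKM in 10 (at least 6.09), with 0 heads between. Fed heads stood at 0.187, 0.284, 0.651, 11.1 and 11 RPKM and 4 h heads at 16.6, 18.1, 9.46, 0.0649 and 19.4 RPKM, and the comparison did not pass (log2 fold change 1.54, limma adjusted p = 0.428). Gnmt, which uses S-adenosylmethionine to methylate glycine, also varied widely within groups. It stood at 7.27, 129, 165, 3.98 and 176 RPKM in fed heads and at 1.16, 0.87, 19.7, 1.22 and 1.96 RPKM at 4 h (log2 fold change -3.63, limma adjusted p = 0.234). In Gnmt the 2 low fed heads were replicates 1 and 5, the same ones that were low in Lsp2 and tobi.

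A few small changes were among the firmest of the comparison, and these genes were chosen after their values were seen. CG34134, on chromosome arm 2L and without a known role, stood at 59.6, 52.4, 66.3, 66.6 and 78.5 RPKM in fed heads and at 41.7, 37.5, 34.7, 35.5 and 37.2 RPKM at 4 h (log2 fold change -0.77, standard error 0.09, limma adjusted p = 0.000399, called in all 10 fits that left out 1 head). Its starved heads, at 57.9 to 73.4 RPKM, and its 1 h heads, at 53.3 to 59.9 RPKM, lay above the 4 h heads, and the direct contrast of 4 h with 1 h was -0.58 (limma adjusted p = 0.00526). Papss, which makes the sulfate donor of the cell, fell by 0.78 (limma adjusted p = 0.00205), and its starved and 1 h values against the same fed heads were -0.70 and -0.90.

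Listed transcripts of other tissues were low in most heads, with single heads that stood apart. The 18 listed ovary and eggshell genes summed to 4.18 to 4.77 RPKM in fed heads and 4.03 to 46.0 RPKM at 4 h (group medians 4.32 and 5.54), and the 14 male transcripts to 2.89 to 56.9 RPKM in fed heads and 2.99 to 4.43 RPKM at 4 h (medians 2.97 and 3.40).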
